A study of Mus musculus with 2 samples.

Results

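This account covers 1982 accessible regions of early thymic progenitors that were called in both genotypes and stood much higher in the ranking of the cells without E2A and HEB than in the ranking of the wild type. Open chromatin was mapped by ATAC-seq, an assay in which a transposase cuts and tags exposed DNA, with 1 library per genotype. Each library was summarised by its submitters as a list of peaks with a score. The wild-type library came from C57BL/6 fetal thymus cells sorted as Lin-, CD4-, CD8-, CD44+, CD25- and Kit+. The double-knockout library came from C57BL/6 fetal thymus cells of genotype E2Afl/fl HEBfl/fl IL7RCre, sorted with the same markers and as YFP+ in addition. Floxed alleles are cut out where the Cre recombinase is made, here under the Il7r driver, and how completely both genes were deleted in the sorted cells was not checked here. How many animals were used or pooled is unstated. The YFP gate differed between the libraries together with the genotype, so the gate and the genotype cannot be told apart.

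E2A and HEB, encoded by Tcf3 and Tcf12, are E proteins, transcription factors of the basic helix-loop-helix class that act as dimers at E-box sequences. Id proteins pair with them and keep them from DNA. In thymic progenitors E proteins are known to promote the T cell programme, and Id2 is known to favour innate lymphoid cells, which lack rearranged antigen receptors. Early thymic progenitors are the least mature thymus cells with the potential to become T cells. The series asks how this balance shapes the choice between innate and adaptive lymphoid fates.

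The members were found from the positions and the scores of the peaks. Peaks of the wild-type list and the double-knockout list on the 19 autosomes that overlapped by at least 1 bp formed 50953 pairs, each peak with 1 partner, out of 83675 autosomal wild-type and 68206 autosomal double-knockout peaks. The score of each peak was turned into a percentile within its full list, where 100 is the strongest peak. Members were chosen by this score alone: a pair was a member if its double-knockout percentile exceeded its wild-type percentile by 30 or more. This held for 1982 pairs, 3.89% of all pairs. In the opposite direction 5295 pairs, 10.4%, stood at least 30 percentiles lower in the double knockout, and 27469 pairs, 53.9%, were within 10 percentiles. Because these percentiles chose the members, they are given as a description and no test was made. With 1 library per genotype there is no replicate check, and the intervals below are exact Clopper-Pearson 95% intervals for shares and 95% intervals from binomial order statistics for medians. They cover counting error only and treat neighbouring regions as independent.

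The surplus of lower over higher pairs depended on how the ranks were set. The wild-type list is longer, and over all pairs the median difference was -2.70 percentiles. Members made up 27.2% of the pairs that differed by at least 30 percentiles in either direction. When percentiles were computed among the shared autosomal peaks alone, 2914 pairs (5.72%) stood at least 30 percentiles higher and 3620 (7.10%) lower. Of these pairs 44.6% were higher, and 1910 of the 1982 members were among the 2914. With both lists cut to the same number of peaks the counts were 3004 (6.41%) and 3459 (7.39%) of 46832 pairs, with 46.5% higher. That cut removed the weakest wild-type peaks, and only 1089 members, 54.9%, were among the 3004.

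Members were weak regions of the wild-type list that stood in the middle or upper part of the double-knockout list. Their wild-type scores ran from 2.74 to 10.3, with a median of 4.49 and quartiles of 3.72 and 5.7. Their double-knockout scores ran from 5.31 to 51.6, with a median of 11.9 and quartiles of 8.81 and 16.5. The medians of the full lists were 7.99 and 7.96. The score has no stated unit, so the scores of the 2 lists are set side by side and no ratio is drawn from them. In percentiles, the members had a wild-type median of 20.2 and a double-knockout median of 65.8. A total of 937 members lay at or below the 20th wild-type percentile, and 221 of these at or below the 5th. In the double knockout 1630 members lay above the 50th percentile, 272 above the 80th and 23 above the 90th. Only 8 members went from the lowest 10% of the wild-type list to the strongest 20% of the double-knockout list.

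**Figure D1:**
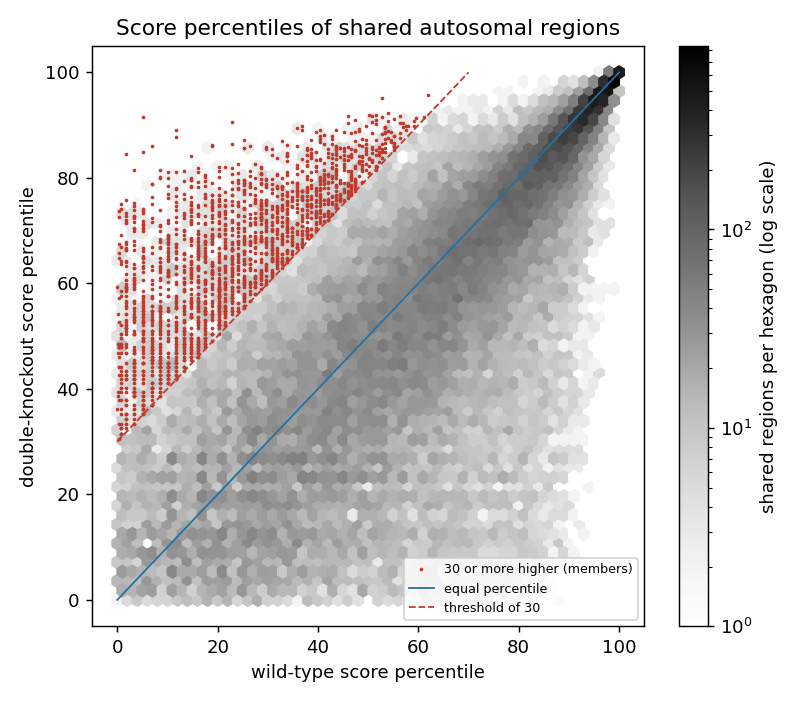
Wild-type score percentile (horizontal) against double-knockout score percentile (vertical) of the 50953 shared autosomal regions, in grey hexagons shaded by number on a log scale, with the 1982 members as red points. The members lie above the dashed threshold line, from the weakest wild-type peaks up to the 62nd wild-type percentile, and the columns of points come from tied scores.

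The difference was graded, without a separate group of extreme regions. It was 30 to 40 percentiles in 1002 members, 40 to 50 in 569, 50 to 60 in 288, 60 to 70 in 99 and 70 or more in 24. A region could be a member only up to the 70th wild-type percentile, and 29374 pairs met that limit. The share of pairs that were members was lower at higher wild-type levels, where the rule leaves less room, and went from 26.3% of 1775 pairs in the lowest 10% of the wild-type list to 4.36% of 4974 pairs between the 40th and 50th percentiles and 2 of 6374 pairs between the 60th and 70th. At the threshold itself the values were continuous. The 3 members nearest to it, on chromosomes 17 (24105859 to 24106009), 2 (169883623 to 169883773) and 4 (140941309 to 140941459), each scored 4.16 (wild type) and 7.33 (double knockout), with a difference of 30.0063 percentiles. The 3 pairs nearest below it, on chromosomes 1 (155356197 to 155356347), 3 (52733822 to 52733972) and 3 (21851940 to 21852090), differed by 29.9874, 29.9469 and 29.9444 percentiles. Their wild-type scores were 9.31, 5.59 and 6.9, and their double-knockout scores 29.2, 10.6 and 14.9. Percentiles are steep among low scores, so a pair with scores of 3.07 and 5.41, on chromosome 4 (132932751 to 132932901), was a member with a difference of 30.7.

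The region with the widest gap was on chromosome 2 (101049370 to 101049520). It scored 3.4 in the wild type, at percentile 5.07, and 38 in the double knockout, at percentile 91.6, a difference of 86.5 percentiles. The centres of its peaks were 1 bp apart, so the same position was called in both lists. It was isolated: the nearest other shared region was 49823 bp away and stood 13.4 percentiles lower in the double knockout (difference -13.4), and the nearest double-knockout-only peak was centred 81604 bp from it.

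Chromosome 14 held 3 of the 10 regions with the largest differences. The first of them (119233607 to 119233757) scored 3.18 in wild-type and 24.7 in double-knockout cells, a difference of 82.7 percentiles. The next (77680159 to 77680309) scored 3.5 and 27, a difference of 79.2, and the third (37539399 to 37539549) scored 3.29 and 21.4, a difference of 78.3. All 3 were among the weakest 7% of wild-type peaks and above the 81st double-knockout percentile. In the last of these the peak centres lay 118 bp apart, so its peaks overlapped over a short stretch only, against 62 and 12 bp in the others.

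The 6 remaining regions of this set were spread over 6 chromosomes. On chromosome 12 (11788247 to 11788397) the scores were 3.4 and 25.2, a difference of 79.7 percentiles. On chromosome 3 (38315072 to 38315222) they were 3.83 and 32.1, a difference of 77.3, and on chromosome 4 (56135138 to 56135288) 3.83 and 29.7, a difference of 76.1. These regions differed in their surroundings. The nearest other shared region to that on chromosome 12 was 325357 bp away, whereas the nearest neighbours of the chromosome 3 and 4 regions, at 21746 and 2246 bp, were members themselves with differences of 33.4 and 56.9. The last 3 had lower double-knockout ranks than the rest of this set, at percentiles of 73.7 to 75.7. They were on chromosome 13 (75989634 to 75989784), with scores of 3.07 and 16.2, chromosome 11 (75150792 to 75150942), with 3.18 and 16.7, and chromosome 1 (157690767 to 157690917), with 2.96 and 15.4, and differed by 74.3, 73.9 and 73.4 percentiles. The nearest neighbours of the chromosome 11 and chromosome 1 regions, at 496 and 7420 bp, were members too, with differences of 35.3 and 38.7.

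Ranked by double-knockout score, the leading members were a different set, in which the wild type already had a peak of middle rank. Only the chromosome 2 region above was in both sets of 10. The strongest member, on chromosome 1 (66599303 to 66599453), scored 10.3 in the wild type, at percentile 62.0, and 51.6 in the double knockout, at percentile 95.6. It was followed by a region on chromosome 5 (96630907 to 96631057), with scores of 8.43 and 49.5 and percentiles of 52.7 and 95.1. These were the only members above the 95th double-knockout percentile. The other 7 had wild-type scores from 7.34 to 9.09 and double-knockout scores from 38 to 39.8. They lay on chromosomes 7 (96861229 to 96861379), 12 (77006426 to 77006576), 1 (21294842 to 21294992), 10 (67498850 to 67499000), 3 (67240011 to 67240161), 1 (163634881 to 163635031) and 4 (32236253 to 32236403). Members of this set could lie beside others: 3 of these 7 had a member as their nearest shared neighbour: the first listed on chromosome 1, at 13270 bp, the chromosome 10 region at 18147 bp and the chromosome 4 region at 556 bp, with neighbour differences of 41.9, 38.6 and 46.0 percentiles.

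The position of the peak within a region was less well kept in members than in steady regions. The median distance between the wild-type and double-knockout peak centres was 15 bp (quartiles 7 and 37, interval of the median 14 to 16), against 10 bp over all pairs. To compare regions of similar mean rank, members were also set beside 3939 steady pairs of like level. These differed by at most 10 percentiles and had a mean of both percentiles between 32.8 and 53.1, the quartiles of the members. All members were kept, with means from 15.4 to 78.8, so the match is to their middle part only. The median distance of the like-level pairs was 9 bp (8 to 9). Centres lay within 20 bp of each other in 59.5% of members (57.3 to 61.7%) and 79.6% of the like-level pairs (78.3 to 80.9%). In this respect the members resembled the 5295 pairs that stood lower in the double knockout, with a median of 15 bp and 58.9% within 20 bp (57.6 to 60.2%). The wider spread was thus seen in pairs that differed in rank in either direction. Such pairs hold a weaker peak, which the mean percentile did not match. The median wild-type percentile was 20.2 in members and 44.4 in like-level pairs. In the double knockout it was 18.9 in lower pairs and 43.4 in like-level pairs. Whether the spread goes with the weaker peak or with the difference in rank was not tested.

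Where another shared region lay very close to a member, it mostly stood higher in the double knockout too. This concerns a small part of the members: for 287 of them, 14.5%, the nearest other shared region was within 2 kb, against 15.9% of the like-level pairs. Of these neighbours 117, or 40.8% (35.0 to 46.7%), were members too, against 3.19% over all pairs and 3.35% (2.08 to 5.07%) for the steady pairs of like level. Couples of members that are each other's nearest neighbour count from both sides, here and in the wider ranges below. The number of separate couples is therefore smaller and these intervals are too narrow. The median difference of these neighbours was 25.6 percentiles, and 249 of the 287, or 86.8% (82.3 to 90.5%), stood higher in the double knockout, against 43.5% over all pairs. Whether such neighbours are parts of 1 wider open area was not tested.

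The median difference of the neighbours was near 0 beyond 5 kb, while an excess of members among them went further. Neighbours up to 1 kb away had a median difference of 27.4 percentiles (176 members), those at 1 to 2 kb of 19.0 (111), those at 2 to 5 kb of 15.9 (215) and those at 5 to 10 kb of 0.0511 (530). Neighbours at 10 to 20 kb had a median of -0.154 (501) and those at 20 to 50 kb of -1.49 (333), while those of the like-level pairs were at -2.57 and -2.96. At 10 to 50 kb, 78 of 834 neighbours were members, 9.35% (7.46 to 11.5%), against 3.42% (2.56 to 4.48%) for the like-level pairs. Within 50 kb in all, 15.9% of 1866 neighbours were members (14.2 to 17.6%), against 3.33% for the like-level pairs (2.77 to 3.96%), and 5.89% stood at least 30 percentiles lower (4.87 to 7.06%), against 9.51% (8.58 to 10.5%). The median difference over this range was 2.47 percentiles, against -2.59 for the like-level pairs. For the lower pairs the median was -9.03, and it was still -7.86 at 20 to 50 kb, against -2.96 for the like-level pairs there. The level of these medians depended on how the ranks were set. With percentiles among shared peaks, the median within 50 kb was 8.31 for members and 0.450 for like-level pairs. With equal list lengths it was 7.62 and 0.511. The contrast between members and lower pairs is therefore given for the full lists only.

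**Figure D2:**
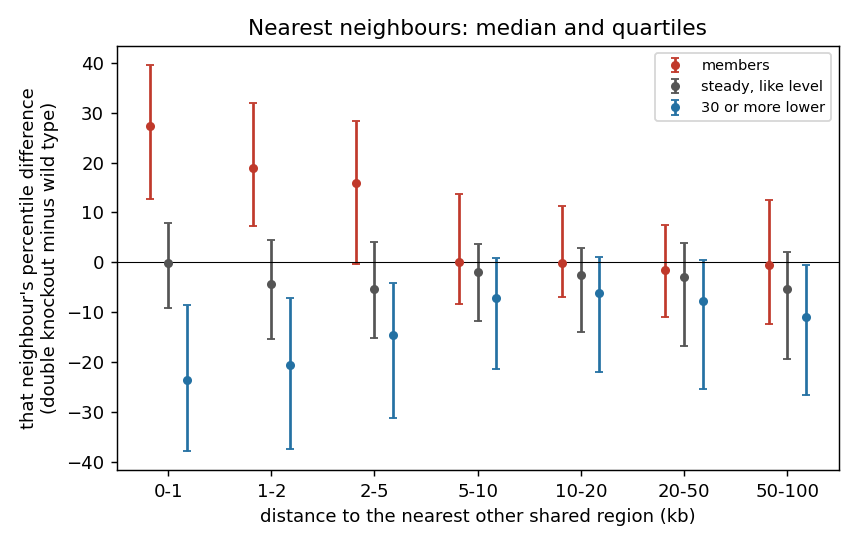
Percentile difference of the nearest other shared region (vertical; points are medians, bars the quartiles) by its distance in kb (horizontal) for members, steady pairs of like level and pairs 30 or more percentiles lower. Neighbours of members have a median of 27.4 percentiles up to 1 kb and 0.0511 at 5 to 10 kb, and those of lower pairs have negative medians at every distance shown.

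Taken over 50 kb, strong regions near members showed little of this pattern. A region above the 70th wild-type percentile cannot itself be a member. The nearest such region within 50 kb of a member (1424 members) had a median difference of -1.64 percentiles (-2.10 to -1.29), against -2.67 (-3.03 to -2.34) for the like-level pairs. It stood higher in the double knockout for 32.1% of members (29.7 to 34.6%) and 25.7% of like-level pairs (24.1 to 27.4%). Percentiles leave strong peaks little room to rise, which limits this comparison. Distance limits it too, since only 15 members had such a region within 2 kb, where the neighbours above differed most. Of these 15 regions 8 stood higher, 53.3% (26.6 to 78.7%), against 22.5% (15.4 to 31.0%) of 120 for the like-level pairs.

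Regions called in the double knockout alone were more frequent near members, while those called in the wild type alone were about as frequent as elsewhere. A double-knockout-only peak was centred within 10 kb of 633 members, 31.9% (29.9 to 34.0%), against 24.1% (22.8 to 25.5%) of the like-level pairs and 22.5% (21.4 to 23.7%) of the lower pairs. A wild-type-only peak was within 10 kb of 34.6% of members (32.5 to 36.8%), 36.5% of like-level pairs (35.0 to 38.0%) and 39.1% of lower pairs (37.8 to 40.4%). Within 25 kb the shares were 59.9% of members (57.7 to 62.1%) and 45.8% of like-level pairs (44.2 to 47.3%). Within 50 kb, 79.2% of members (77.4 to 81.0%) and 67.1% of like-level pairs (65.7 to 68.6%) had a double-knockout-only peak. The nearest library-only peak of any kind belonged to the double knockout for 48.3% of members (46.1 to 50.6%), 36.3% of like-level pairs (34.7 to 37.8%) and 28.9% of lower pairs (27.7 to 30.2%). With lists of equal length, the 10 kb shares for double-knockout-only peaks were 37.5% for the members found there and 28.2% for the like-level pairs, and those for wild-type-only peaks 29.8% and 28.0%.

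**Figure D3:**
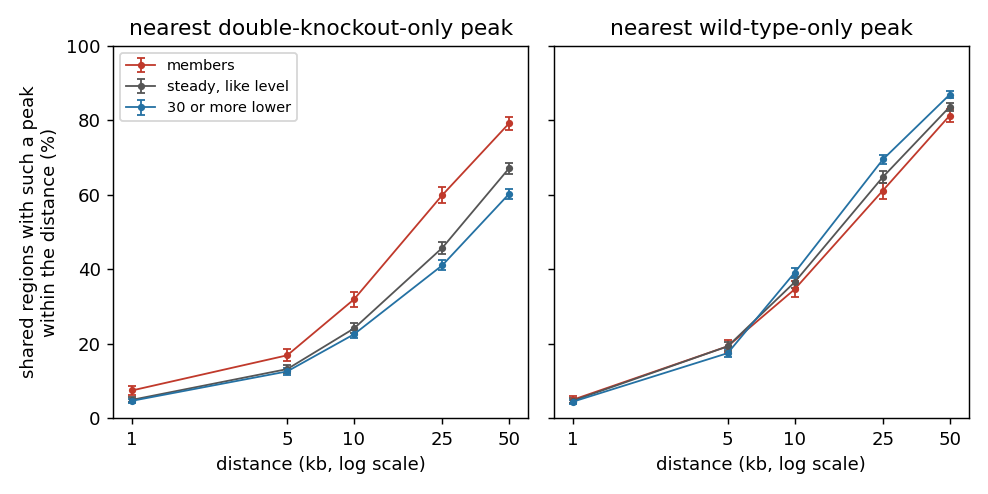
Share of shared regions (vertical, %) with a double-knockout-only peak (left) or a wild-type-only peak (right) centred within the distance on the horizontal log axis in kb, with exact 95% intervals as bars. At 10 kb the double-knockout-only share is 31.9% for members and 24.1% for steady pairs of like level, and at 50 kb it is 79.2% and 67.1%.

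The members were found on every autosome, with unequal shares. Chromosome 14 had the largest share, 112 of 2049 pairs or 5.47% (4.52 to 6.54%), followed by chromosome 9 with 4.95% of 2688 (4.16 to 5.84%) and chromosome 4 with 4.82% of 3236 (4.11 to 5.62%). The smallest was on chromosome 7, with 71 of 3273 pairs or 2.17% (1.70 to 2.73%), then chromosome 8 with 2.89% of 2599 (2.28 to 3.60%). The intervals of these 5 chromosomes and of chromosome 11, at 3.19% of 3539 (2.64 to 3.83%), did not include the overall share of 3.89%. Members of chromosome 4 were unevenly spread: the windows of 500 kb described below held 11, 9 and 8 of its 156. Its interval treats regions as independent and is too narrow where members cluster. For lower pairs the chromosomes took another order. On chromosome 7, 9.44% of its pairs were lower (8.46 to 10.5%), and on chromosome 14 11.7% (10.3 to 13.1%), so chromosome 14 was at or above the overall share in both directions. Chromosome 14 stayed the highest and chromosome 7 the lowest with percentiles among shared peaks (8.15% and 3.57%, against 5.72% of all pairs). The same held with lists of equal length (8.76% and 3.68%, against 6.41% of all pairs). Chromosomes 9 and 4 stayed above the share of all pairs and chromosome 8 below it in both settings. Chromosome 11 did not keep its place: it was below at 5.45% in the first setting and above at 6.98% in the second.

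**Figure D4:**
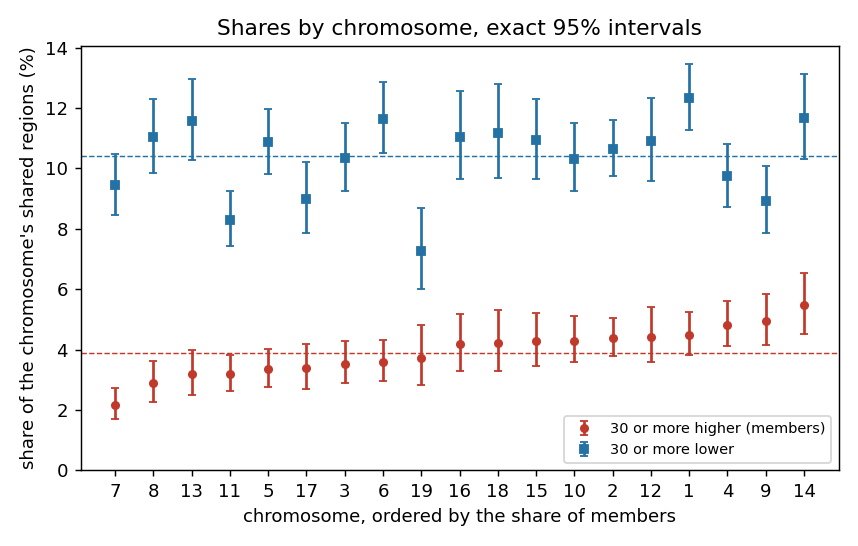
Share of each autosome's shared regions (vertical, %) that were members (red circles) or at least 30 percentiles lower in the double knockout (blue squares), with exact 95% intervals as bars and the overall shares as dashed lines, ordered by the share of members. Members run from 2.17% on chromosome 7 to 5.47% on chromosome 14, and the order of the blue squares is different.

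Some members followed each other directly in the order of shared regions along a chromosome. For 1529 members, 77.1%, neither adjacent shared region was a member, 338 formed 169 adjacent couples and 75 formed 25 runs of 3. Of the 5295 lower pairs, a larger set, 66.3% stood alone in this way. Longer runs were few, with 6 of 4 members, 2 of 5 and 1 of 6. The run of 6 was on chromosome 15 (61254587 to 61740784) and spanned 486 kb with no other shared region between its members. Their wild-type scores were 3.18, 6.24, 3.72, 3.18, 4.49 and 4.05 in the order of position, and their double-knockout scores 6.79, 16.8, 11.5, 14.3, 8.39 and 12.8. The differences ran from 31.8 to 69.9 percentiles. The first 3 members of the run lay within 17.2 kb and the next gaps measured 107, 124 and 238 kb.

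Of the 8 other runs of 4 or more, 4 were shorter than 30 kb. On chromosome 9 (119989155 to 120001206) 4 adjacent members filled 12.1 kb, with wild-type scores of 4.6 to 5.48 and double-knockout scores of 13.5 to 18.8. A second run of 4 on chromosome 9 (32718375 to 32736547) covered 18.2 kb, and its members were stronger in both lists, at 7.45 to 8.87 and 21.1 to 35.6. Runs of 4 on chromosomes 18 (33113725 to 33130102) and 16 (92765125 to 92794284) covered 16.4 and 29.2 kb. The 2 others, on chromosomes 11 (98341457 to 98407380) and 1 (60833967 to 60910497), covered 65.9 and 76.5 kb. Runs of 5 were on chromosomes 4 (140868418 to 140941459) and 12 (108967634 to 109199539), over 73.0 and 232 kb.

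In windows of 500 kb, the 3 highest counts of members were on chromosome 4, while the share of members was higher in windows on chromosomes 9 and 1. Of the windows that held a shared region, 2855 had no member, 795 had 1 and 298 had 2, and only 5 had 7 or more. The first of these, on chromosome 4 (140500001 to 141000000), held 11 members among 38 shared regions, 28.9%, with no region at least 30 percentiles lower. The whole window leaned the same way, since 34 of its 38 regions stood higher in the double knockout, with a median difference of 16.5 percentiles. Over all pairs 35.5% stood higher. Its members had wild-type scores of 3.4 to 7.56 and double-knockout scores of 6.05 to 17.8, and the largest difference, 50.1 percentiles, belonged to a region (140868418 to 140868568) with scores of 3.94 and 11. Even its strong regions leaned this way: of 8 above the 70th wild-type percentile, 7 stood higher in the double knockout, against 24.1% of such regions overall. The window was chosen for its members, so these values describe it and do not test it.

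A pair of adjoining windows on chromosome 4 held 17 members among 66 shared regions. The first (132500001 to 133000000) held 9 among 34, with 30 of the 34 higher in the double knockout and a median difference of 20.5 percentiles. The second (133000001 to 133500000) held 8 among 32, with 26 higher, a median of 10.1 and 1 region at least 30 percentiles lower. Their members stretched from 132613880 to 133435396, with the largest difference at the far end. That region (133435246 to 133435396) scored 4.05 in wild-type and 24.3 in double-knockout cells, a difference of 69.5 percentiles. Of 17 strong regions in the adjoining windows, 14 stood higher in the double knockout. Library-only peaks were mixed, with 15 wild-type-only and 17 double-knockout-only peaks in the first window and 12 and 18 in the second.

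The window on chromosome 9 (32500001 to 33000000) held 7 members among 18 shared regions, 38.9%, and had the highest median difference of the 5 windows, 27.7 percentiles. Its members fell into a couple at 32538538 to 32539633 and a group of 5 from 32690824 to 32736547, which contains the compact run above. The strongest of them (32718375 to 32718525) scored 8.1 in the wild type, at percentile 50.8, and 35.6 in the double knockout, at percentile 90.6. Of its 4 regions above the 70th wild-type percentile 1 stood higher.

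On chromosome 1 the window from 60500001 to 61000000 held 7 members among 23 shared regions, and its parts went in opposite directions. All 7 members lay between 60833967 and 60955574, a stretch of 122 kb, with differences of 32.5 to 69.0 percentiles. The largest was at 60932238 to 60932388, with scores of 3.4 and 15.6. The window also held 2 regions at least 30 percentiles lower in the double knockout, and none of its 4 strong regions stood higher. When windows were shifted by 250 kb, this area held 12 members among 28 regions (60750001 to 61250000) and the adjoining area of chromosome 4 held 14 among 38 (132750001 to 133250000). The order of the windows changed with this shift, as the area that led before held 9 among 36 (140750001 to 141250000), while the chromosome 9 area held 7 among 27 (32250001 to 32750000).

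**Figure D5:**
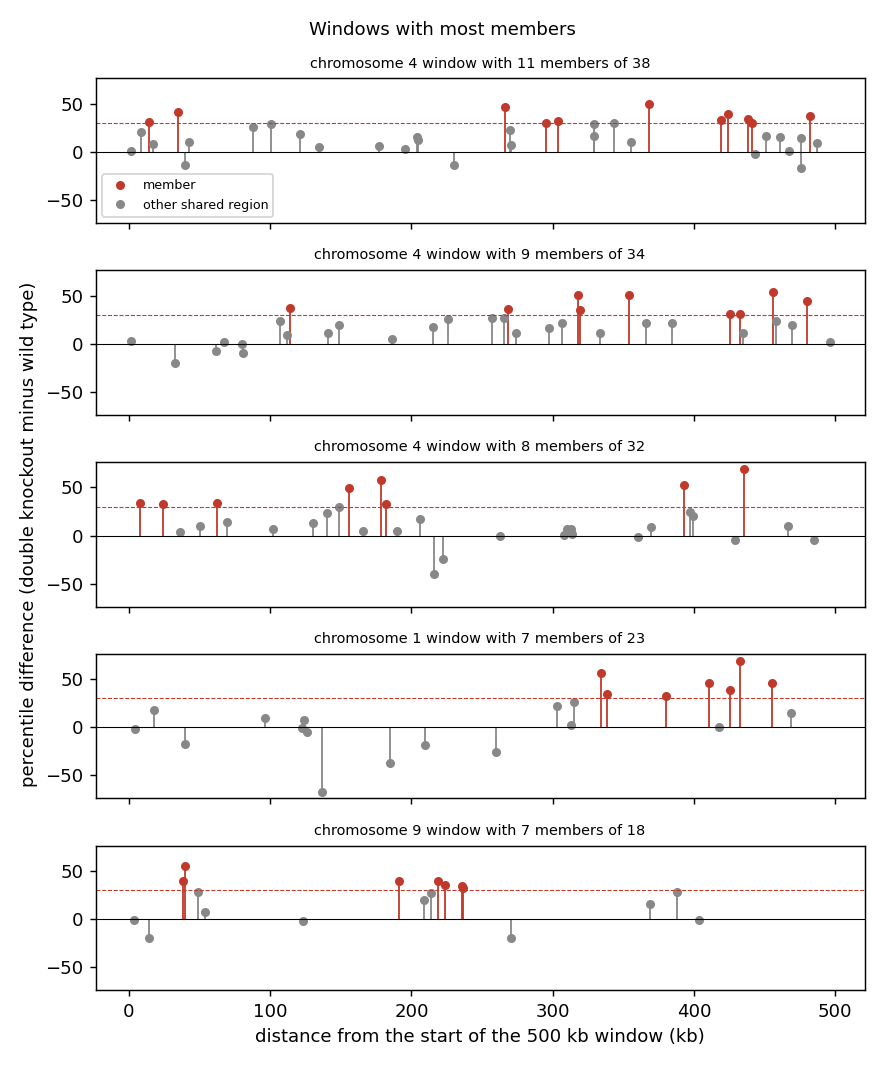
Percentile difference (vertical, double knockout minus wild type) of each shared region in the 5 windows of 500 kb with most members, by distance from the start of the window in kb (horizontal), with members in red and the dashed line at 30. The chromosome 4 windows lie mostly above 0, with medians of 16.5, 20.5 and 10.1, while the left part of the chromosome 1 window lies mostly below it.

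These windows kept their lean when the ranks were set otherwise. With lists of equal length they held 9 of 28, 11 of 25, 7 of 27, 5 of 18 and 8 of 15 members in the order given in the plot of the windows, and medians of 24.4, 27.9, 13.7, 14.2 and 32.1 percentiles. Over all pairs, equal lists gave 6.41% members and a median of 0.735 percentiles, against 3.89% and -2.70 as described. The same scores chose the windows, so these settings are no independent check. The chromosome 1 window lost most when 50% of both peaks had to overlap, with 4 members left among 17 shared regions.

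The longest stretch in each direction in which library-only peaks of 1 genotype prevailed is described here with its members. The longest autosomal stretch of adjoining 200 kb windows with at least 4 more double-knockout-only than wild-type-only peaks was on chromosome 12 (108000001 to 109200000). Of its 13 shared regions 9 were members and 1 was at least 30 percentiles lower, with a median difference of 37.4 percentiles. The longest stretch in the opposite direction was on chromosome 14 (69200001 to 71800000), where none of 38 shared regions was a member, 17 were at least 30 percentiles lower and the median was -22.1. Shared and library-only regions leaned the same way in both stretches. Both were picked as extremes of these same lists and were already known from earlier results of them. The values therefore describe these stretches and do not test whether other stretches lean alike. Chromosome 14 held the largest share of members, and none of them lay in that stretch.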

How the data were processed

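Each of the 2 libraries had 1 deposited peak list in mm9 coordinates, per the submitters' processing notes, which name bcl2fastq 1.8.4, Bowtie and HOMER without roles. Peaks were called per sample. The authors' deposited score has no stated unit, and the sources used here give neither read depth, duplicate handling, transposase offset nor the calling threshold, each of which can change ranks. Peaks are 151 bp wide except 1 per list. Coordinates are given 1-based and, for shared regions, are those of the double-knockout peak.

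Pairs, percentiles (average rank for ties), distances between centres and windows were computed with pandas 2.3.3, SciPy 1.17.1 and NumPy 2.4.6 under Python 3.11.15. Only the pairing and the ranking were checked on simulated data, with planted rises in rank. Library-only peaks overlap no peak of the other list. No test between genotypes was made. The text names the 10 members with the largest difference, the 10 with the highest double-knockout score, 3 pairs on each side of the threshold and the 5 windows of 500 kb with most members; runs and stretches were added after their values were seen, as were the like-level pairs and the strong neighbours. The members and lists were chosen with earlier results of these data known. Gene positions, gene names and sequence motifs were not analysed here, since the tables at hand use another build (GRCm38).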

Additional observations from a re-analysis of the deposited data

How the results depend on the processing

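No paired analysis was possible because each genotype had a single library, which also meant that none could be omitted. The members numbered 1825 of 48379 pairs (3.77%) with an overlap of 50% of both peaks and 2914 of 50953 (5.72%) with percentiles among shared peaks. They numbered 2141 of 54795 (3.91%) with mutually nearest centres within 500 bp and 3004 of 46832 (6.41%) with equal list lengths. As described, 3.89% of the 50953 pairs were members. Of the same pairs, 980 passed a threshold of 40 percentiles and 3796 one of 20. The median distance between centres was 12 bp with equal list lengths. The 10 kb share with a double-knockout-only peak was 35.1% with 50% overlap and 37.5% with equal list lengths, and 16.9% and 59.9% within 5 and 25 kb. For wild-type-only peaks it was 37.3% with 50% overlap, 37.7% with percentiles among shared peaks and 29.8% with equal list lengths, and 19.3% and 61.2% within 5 and 25 kb. The median difference of the nearest pair was 8.31 with percentiles among shared peaks, 7.62 with equal list lengths, 8.26 within 10 kb, 25.6 within 2 kb, and -1.64 for the nearest pair above the 70th wild-type percentile. Fewer regions fit into windows of 200 kb, where the highest number of members was 7. Equal lists hold fewer wild-type peaks by construction, and a 50% overlap leaves fewer pairs. With 50% overlap the like-level pairs moved too, from 24.1% to 26.3% for double-knockout-only and from 36.5% to 38.9% for wild-type-only peaks. Their wild-type-only share was 36.7% with percentiles among shared peaks and 28.0% with equal list lengths. In those settings the members stood slightly above them, and below them as described. The direction of this small contrast thus depended on the ranking. The cause of the other shifts was not tested. The planned gene and motif results were not run.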
